A study of Mus musculus with 8 samples.

Results

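Expression of the major histocompatibility complex (MHC) class I genes H2-T18, H2-T23, H2-K1, H2-D1 and B2m and of the peptide transporter genes Tap1 and Tap2 was described in cerebral cortex of WT mice and of mice lacking the transcription factors SHARP1 and SHARP2 (S1/2-/-). The members were the array's probe sets that carried a single gene symbol and whose symbol was on this list. A probe set is the group of short probes by which an Affymetrix array measures a transcript. Of the 7 listed genes, 6 had such a probe set and H2-T23 had none. They gave 11 of the 12422 probe sets that remained after the array's control probe sets were left out, namely 3 each for H2-K1 and H2-D1, 2 for Tap1 and 1 each for H2-T18, B2m and Tap2. The genes were chosen from genotype results of these arrays, H2-T18 for its higher signal in S1/2-/- cortex and the others as genes of the same pathway. For the members, differences between genotypes are therefore given below as a description without p-values, a count of members called between genotypes stands only beside the share over all probe sets, and only differences between times of day are tested.

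Cortex was taken from 8 individual mice of strain C57/bl6, aged 4 months, and each mouse was measured on 1 array. The 4 groups of 2 mice were WT at ZT4, WT at ZT16, S1/2-/- at ZT4 and S1/2-/- at ZT16. Zeitgeber time (ZT) counts hours from lights on, so that ZT4 falls in the rest phase and ZT16 in the active phase of a mouse, and the design asks how expression differs between these times and between the genotypes. The S1/2-/- mice carried null mutations of both genes, came from breeding pairs heterozygous for both and, per the study's methods, were male and backcrossed to C57Bl/6J, as were the WT mice. The tissue was a coronal slice of whole cortex with all its cell types, in which fewer cells of a type and less RNA per cell cannot be told apart.

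Class I molecules show fragments of a cell's own proteins on its surface. A heavy chain, such as those encoded by H2-K1 and H2-D1, binds the light chain beta-2-microglobulin (B2m) and a peptide that the transporter TAP, a pair of Tap1 and Tap2, has carried into the endoplasmic reticulum. H2-T18 and H2-T23 encode non-classical heavy chains, the first a thymus leukaemia antigen and the other the Qa-1 molecule that inhibits natural killer cells, and in the brain class I genes are expressed by microglia, endothelium and some neurons.

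Classical class I genes are under a shared control by NF-kappa B, by interferon-regulated factors and by a regulatory module nearer the start. The 180 bases upstream of the annotated start of H2-K1, H2-D1 and B2m are shown because these 3 genes have member probe sets that passed the intensity filter, and because H2-K1 and H2-D1, whose probe sets end in _f_at in most cases, carry the same control letters. They are from RefSeq (GRCm38.p6): H2-K1 at chr17:34000348-34000527 on the minus strand, H2-D1 at chr17:35262914-35263093 on the plus strand and B2m at chr2:122147507-122147686 on the plus strand. For H2-K1 the first of its 2 promoter entries is shown. Capitals mark matches to GGGATTCCC (core of the kappa B element), AGTTTCACT (core of the class I interferon response element), GAAANNGAA (core of an interferon-stimulated response element) and CCAAT, each on either strand, and no marked matches overlap.
H2-K1: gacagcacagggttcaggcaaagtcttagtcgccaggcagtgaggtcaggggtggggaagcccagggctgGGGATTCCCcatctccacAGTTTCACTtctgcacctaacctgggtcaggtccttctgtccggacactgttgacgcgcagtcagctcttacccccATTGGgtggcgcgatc
H2-D1: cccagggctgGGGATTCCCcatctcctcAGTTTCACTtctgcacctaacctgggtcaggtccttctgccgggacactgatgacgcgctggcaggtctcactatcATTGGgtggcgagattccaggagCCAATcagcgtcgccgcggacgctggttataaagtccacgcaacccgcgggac
B2m: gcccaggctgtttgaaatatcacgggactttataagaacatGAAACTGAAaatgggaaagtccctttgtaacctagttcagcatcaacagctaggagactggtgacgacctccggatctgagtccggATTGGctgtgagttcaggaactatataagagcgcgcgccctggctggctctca

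Of the 7 member genes, 5 had a promoter entry, with 6 entries in all. H2-T18 and Tap2 had none. Within 250 bases before the start, GGGATTCCC was found in 2 genes, H2-K1 and H2-D1, against 0.301% of 32851 promoters, and AGTTTCACT was found in the same 2 genes, against 0.268%. In the H2-K1 entry shown these matches began at -110 and -92 from the start and in H2-D1 at -170 and -152, the same distance apart. H2-K1 had a second entry with another start, from which they began at -124 and -106. GAAANNGAA was found in 2 others, B2m and H2-T23, against 7.13% of promoters. CCAAT on either strand was present in all 5 (33.8% of promoters) and TGACG, a cyclic AMP response half-site that is not marked, in 4 (17.8%). CACGTG, the E-box that SHARP1 and SHARP2 are known to bind, occurred in 0 of the 6 entries and in 6.02% of all promoters. A match describes letters in this window, not binding, and the absence of a match says only that these letters are not there.

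Signals were the deposited MAS5 values, in which every array is scaled to a trimmed mean of 500, so a signal can be compared between arrays for a probe set but not between probe sets. Median signals per array were 186 to 206, and replicate arrays correlated at r = 0.936 to 0.94 over all probe sets. Bhlhe40, which encodes SHARP2, had 1 probe set, with signals of 983 to 1285 in WT and 834 to 1043 in S1/2-/- arrays, and these pooled ranges overlapped. Within each time they did not, at 983 to 1074 in WT against 834 to 913 in S1/2-/- at ZT4 and 1189 to 1285 against 889 to 1043 at ZT16. No source used here says whether its probes lie in the deleted part, and so it does not check the genotype labels. Bhlhe41, which encodes SHARP1, had no probe set with a single symbol. Snap25, a neuronal marker, ranged from 40403 to 46756 in WT and from 35071 to 39059 in S1/2-/- arrays, lower in every S1/2-/- array. The summed signal of 13 cortical neuron markers was 76195 to 87689. These signals do not go against the cortex label.

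H2-T18 was higher in every S1/2-/- array than in any WT array. Its only single-symbol probe set, 98284_f_at, gave 193 and 247 in WT at ZT4, 457 and 268 in WT at ZT16, 679 and 781 in S1/2-/- at ZT4, and 854 and 565 in S1/2-/- at ZT16. By group mean the order was WT at ZT4 (220 ± 38.2, SD, n = 2), WT at ZT16 (363 ± 133), S1/2-/- at ZT16 (710 ± 204) and S1/2-/- at ZT4 (730 ± 72.4). The 2 S1/2-/- groups overlapped, whereas the lowest S1/2-/- array lay above the highest WT array. Averaged over times, S1/2-/- exceeded WT by 1.36 on the log2 scale (SE 0.20), or 2.57-fold, with 1.74 (SE 0.28) at ZT4 and 0.99 (SE 0.28) at ZT16. The value at ZT16 was 0.61 without the second WT array at that time and 1.37 without the first. These are the values for which the gene was listed. Among the 7453 probe sets above the intensity filter it ranked 11th by fold in this comparison.

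**Figure D1:**
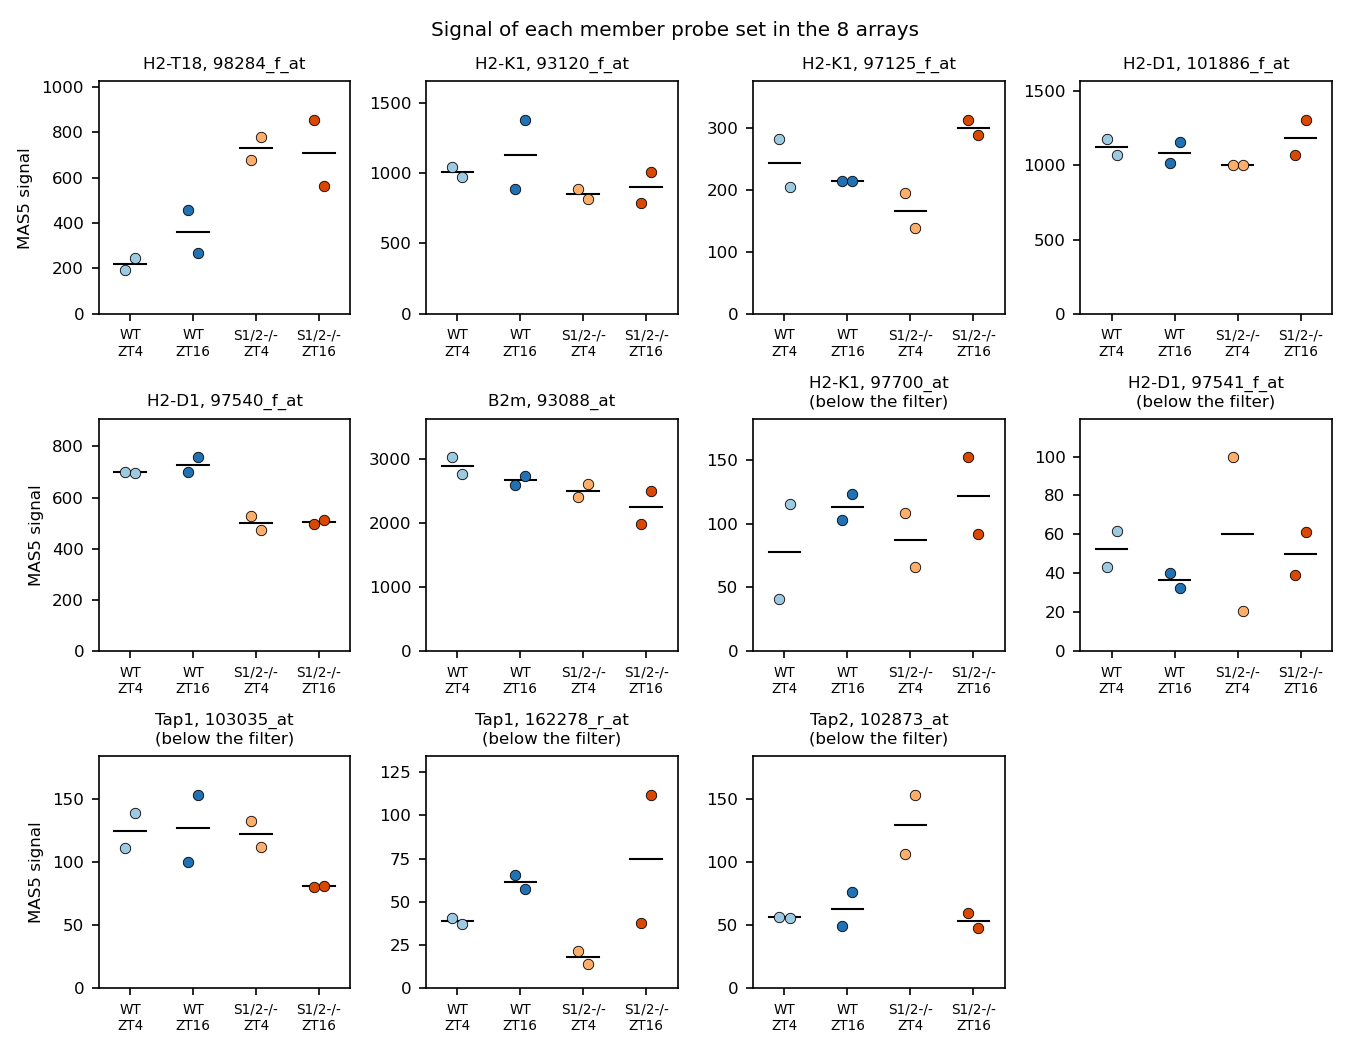
MAS5 signal (linear axis from 0) of the 11 member probe sets in each of the 8 arrays, by genotype and time. Points are single mice and bars are means of 2 mice, and 5 panels are marked as below the intensity filter. The S1/2-/- arrays of H2-T18 lie at 565 to 854, above the 193 to 457 of WT, and those of the H2-D1 probe set 97540_f_at at 473 to 527, under the 696 to 757 of WT.

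The suffix _f_at in a probe set's name is Affymetrix's mark for probes that match several members of a gene family. It stood on 6 of the 11 member probe sets and on 5 of the 6 that passed the filter, H2-T18 among them. RNA of near-identical class I genes cannot be told apart by such probes, so a signal named for H2-T18, H2-K1 or H2-D1 may include RNA of paralogs and the gene behind a difference is uncertain.

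A further 2 probe sets listed H2-T18 together with 1 other symbol, the class I gene H2-T3, and neither showed the separation of 98284_f_at. The first, 96976_f_at, gave 284 and 230 in WT at ZT4, 230 and 248 in WT at ZT16, 210 and 304 in S1/2-/- at ZT4, and 303 and 269 in S1/2-/- at ZT16. Its genotypes overlapped, and the difference was 0.12 on the log2 scale (SE 0.18). The other, 102692_s_at, lay below the filter at 7.68 to 106, with a difference of -0.79 (SE 0.66) and overlapping genotypes. The higher signal of H2-T18 in S1/2-/- arrays therefore rests on 98284_f_at alone.

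**Figure D2:**
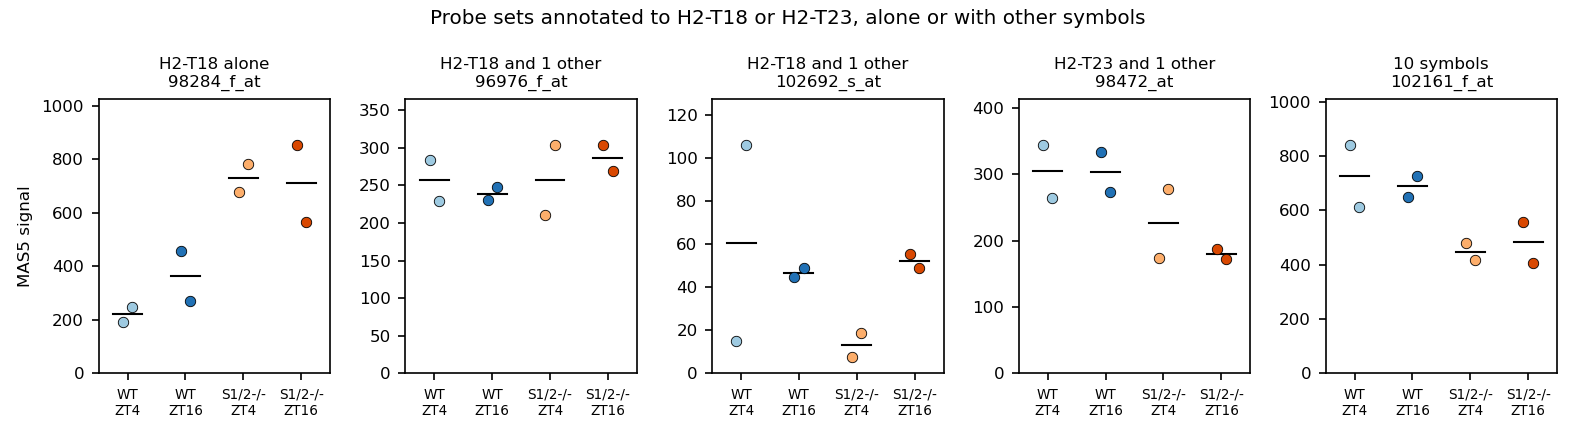
MAS5 signal (linear axes from 0) of the H2-T18 probe set with a single symbol and of 4 probe sets annotated to several symbols, H2-T18 or H2-T23 among them. Points are single mice and bars are means of 2 mice. In 98284_f_at all S1/2-/- arrays are above WT, in 102161_f_at they are all under WT, and in the other panels the genotypes overlap.

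The classical heavy chain gene H2-K1 showed no separation of genotypes in any of its 3 probe sets. The first, 93120_f_at, gave 1041 and 970 in WT at ZT4, 885 and 1377 in WT at ZT16, 889 and 819 in S1/2-/- at ZT4, and 788 and 1009 in S1/2-/- at ZT16, a difference of -0.27 (SE 0.15). The second, 97125_f_at, gave 282 and 203, 214 and 214, 194 and 138, and 312 and 287 in the same order. Here the S1/2-/- arrays were the lowest at ZT4 and the highest at ZT16, and averaged over times the difference was -0.03 (SE 0.20). The third, 97700_at, ranged from 40.8 to 152 and lay below the filter.

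H2-D1, the other classical heavy chain gene, had 1 probe set that was lower in every S1/2-/- array and 1, also above the filter, that was not. In 97540_f_at the signals were 700 and 696 in WT at ZT4, 700 and 757 in WT at ZT16, 527 and 473 in S1/2-/- at ZT4, and 496 and 511 in S1/2-/- at ZT16. The difference was -0.51 (SE 0.10), and was of like size at ZT4 (-0.48, SE 0.15) and ZT16 (-0.53, SE 0.15). In 101886_f_at the signals were 1177 and 1067, 1012 and 1159, 999 and 1004, and 1066 and 1303 in that order, with overlapping genotypes and a difference of -0.02 (SE 0.10). The third, 97541_f_at, was below the filter at 20.4 to 99.5. Over the 8 arrays, log2 signals of probe sets of the same gene correlated weakly: r = 0.141, 0.095 and 0.013 for the 3 pairs of H2-D1 and r = 0.124, -0.051 and 0.095 for those of H2-K1. These points share arrays and scaling, and no test was made of them.

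B2m, the light chain that class I heavy chains need, was somewhat lower in most S1/2-/- arrays. Its probe set gave 3019 and 2758 in WT at ZT4, 2589 and 2732 in WT at ZT16, 2406 and 2599 in S1/2-/- at ZT4, and 1982 and 2498 in S1/2-/- at ZT16. The S1/2-/- range of 1982 to 2599 overlapped the WT range of 2589 to 3019 by a single array on each side, and the difference was -0.23 (SE 0.09).

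The transporter genes Tap1 and Tap2 were dim, and none of their 3 probe sets passed the filter, which lay at a signal of 111. Tap1 103035_at fell just under it, at 111 and 139 in WT at ZT4, 99.9 and 153 in WT at ZT16, 132 and 112 in S1/2-/- at ZT4, and 80.5 and 81.0 in S1/2-/- at ZT16. The other Tap1 probe set, 162278_r_at, ranged from 14.2 to 112 and correlated with the first at r = -0.346 over the 8 arrays. Tap2 102873_at gave 56.6 and 55.6, 49.2 and 76.5, 106 and 153, and 59.8 and 47.5 in the same order, highest in S1/2-/- at ZT4. At these signals the difference between genotypes was -0.32 (SE 0.29) and -0.53 (SE 0.49) for the Tap1 probe sets and 0.49 (SE 0.36) for Tap2 in a fit without the filter, each with overlapping genotypes.

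H2-T23 was measured only by probe sets shared with other genes. The probe set 98472_at, annotated to H2-T23 and 1 other symbol, gave 344 and 264 in WT at ZT4, 334 and 272 in WT at ZT16, 174 and 278 in S1/2-/- at ZT4, and 187 and 173 in S1/2-/- at ZT16. Of the S1/2-/- arrays 3 lay under all WT arrays and 1 did not, and the difference was -0.60 (SE 0.20). A probe set annotated to 10 symbols, among them H2-T23, H2-K1 and H2-D1, ranged from 612 to 842 in WT and from 405 to 559 in S1/2-/-, where every array was lower, with a difference of -0.61 (SE 0.15).

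Across the 6 member probe sets that passed the filter, 5 had a genotype difference below 0 and 1, H2-T18, above 0, where 50.4% of all probe sets tested lay above 0. Their median was -0.13, against 0.0018 over all probe sets tested. By the study's thresholds, fold over 1.5 and adjusted p under 0.05, 1 of the 6 was called higher and 0 were called lower, against 0.215% and 0.0403% of all probe sets tested. Since the list was made from this comparison, nothing is read from that count, which fell to 0 without the filter, the intensity trend or the moderation of the fit and with any 1 of 6 of the 8 arrays left out. S1/2-/- arrays that were all higher than WT arrays were found for 1 member, against 3.43% of the probe sets tested, and arrays that were all lower for 1 member, against 3.74%. At each time alone 0 of the 6 were called, against 0.0939% of all probe sets tested at ZT4 and 0.0134% at ZT16, and nothing is read from these counts either.

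**Figure D3:**
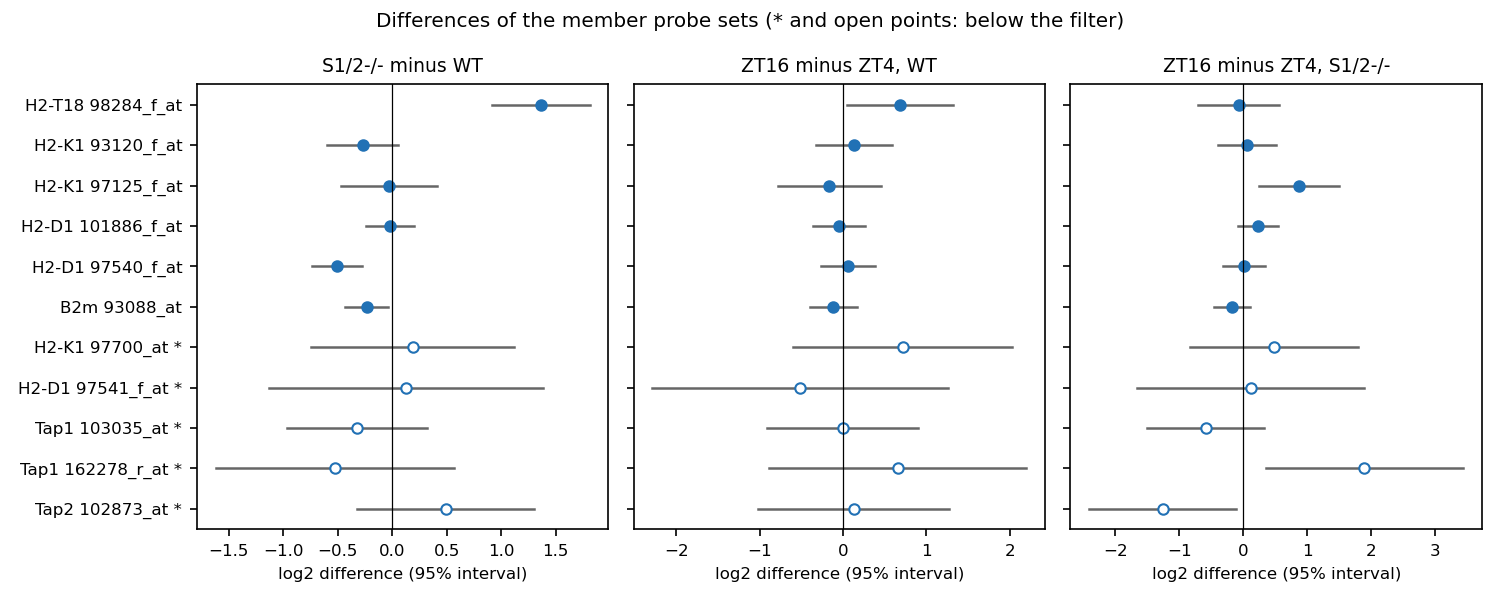
Log2 difference of each member probe set with its 95% interval from the fit: S1/2-/- minus WT averaged over times, and ZT16 minus ZT4 in each genotype, on separate horizontal scales. Filled points passed the intensity filter and open points did not. H2-T18 stands at 1.36 in the left panel, where the other tested members lie between -0.51 and -0.02.

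Between ZT4 and ZT16 no member probe set was called in WT, in S1/2-/-, averaged over genotypes or in the test of whether the time difference itself differed between genotypes (limma, fold over 1.5 and adjusted p under 0.05). Of all probe sets tested, 0.0134% were called in WT and 0% in each of the others. Without the first WT array at ZT16 the calls over all probe sets were 22 higher and 78 lower in WT, 8 higher and 27 lower averaged over genotypes and 15 higher and 2 lower in the test of the difference, and still 0 members were called. With an unadjusted p under 0.05 and the same fold, 1 of the 6 members passed in WT, 1 in S1/2-/- and 1 in the test of the difference, against 3.45%, 2.82% and 4% of all probe sets tested. None passed averaged over genotypes, where 2.04% of all did. ZT4 and ZT16 arrays overlapped for each of the 11 member probe sets when the genotypes were pooled, while ZT16 arrays were all higher or all lower in 2.78% and 2.28% of the probe sets tested.

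The member that passed without adjustment in WT was H2-T18, whose ZT16 arrays lay above its ZT4 arrays by 0.68 on the log2 scale (SE 0.28, 95% interval 0.05 to 1.32, limma adjusted p = 0.625). This value rests largely on the first WT array at ZT16, since it was 0.30 without that array and 1.07 without the other. In the same WT arrays the summed signal of myelin genes was 17545 to 19256 at ZT4 and 23219 to 23565 at ZT16, with all 8 tested myelin genes higher and 0 called. The Actb 3' to 5' ratio was 2.09 to 2.30 at ZT4 and 1.91 to 2.01 at ZT16. The summed signal of choroid plexus genes, of which only Ttr passed the filter, was 378 to 630 at ZT4 and 3342 to 3699 at ZT16. None of these ranges overlapped between times, and their part in the time difference was not tested. In S1/2-/- the difference was -0.07 (SE 0.28, adjusted p = 0.981, limma), and the test of the difference between genotypes gave -0.75 (SE 0.40, adjusted p = 0.875, limma). The interval of that last value, -1.64 to 0.14, leaves a wide span at 2 arrays per group.

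In S1/2-/- the member that passed without adjustment was the H2-K1 probe set 97125_f_at. Its S1/2-/- arrays were 0.87 higher at ZT16 than at ZT4 (SE 0.28, limma adjusted p = 0.539), 1.12 without the first ZT4 array and 0.63 without the other. In WT the difference was -0.16 (SE 0.28, adjusted p = 0.916, limma), and the time differences of the genotypes differed by 1.03 (SE 0.39, adjusted p = 0.827, limma). The other tested H2-K1 probe set, 93120_f_at, gave 0.06 (SE 0.21) in S1/2-/- and 0.14 (SE 0.21) in WT, the latter being 0.45 without the first WT array at ZT16 and -0.18 without the second. The difference between the probe sets was not tested.

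B2m was 0.14 lower at ZT16 than at ZT4 averaged over genotypes (log2 difference -0.14, SE 0.09, limma adjusted p = 0.625). This was -0.06 without the first S1/2-/- array at ZT16 and -0.23 without the second. The H2-D1 probe sets differed by 0.04 (SE 0.10) for 97540_f_at and 0.09 (SE 0.10) for 101886_f_at. Among the dim probe sets, fitted without the filter, Tap1 162278_r_at differed by 1.90 (SE 0.69, adjusted p = 0.678, limma) and Tap2 by -1.26 (SE 0.51, adjusted p = 0.718, limma) between ZT16 and ZT4 in S1/2-/-. Both rest on signals between 14.2 and 153, near the dim end of the array.

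Other genes of the class I pathway were taken as lists by their function. Of 30 other class I heavy chain genes and relatives, 17 were measured and 6 passed the filter, 3 of them higher and 3 lower in S1/2-/- by sign, with a median difference of -0.05 against -0.00073 over the 5690 genes tested. None was called, where 0.264% of all genes were, and by unadjusted p under 0.05 with any fold 0 were higher and 1 was lower, against 6.43% and 5.94% of all genes. That gene was H2-M3, which presents bacterial formylated peptides, at 229 to 368 in WT and 177 to 217 in S1/2-/- (-0.54, SE 0.18, limma adjusted p = 0.293), followed by H2-Bl (-0.33, SE 0.18, adjusted p = 0.484, limma). Of 19 genes for peptide supply and loading, 15 were measured and 12 tested, 7 of them higher and 5 lower by sign, the median being 0.05 and none called. The gene with the largest statistic here was Psme1, a subunit of the proteasome activator PA28, at 508 to 713 in WT and 388 to 451 in S1/2-/- (-0.43, SE 0.13, limma adjusted p = 0.268), followed by the peptidase gene Ide (0.39, SE 0.17, adjusted p = 0.380, limma). At ZT16 against ZT4 averaged over genotypes, 2 of the 6 other heavy chain genes and 8 of the 12 supply genes were higher by sign. None of either list was called in that comparison, where 0% of all genes were called.

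Class II and interferon genes gave no calls between genotypes either. Of the 15 genes for class II molecules and their regulators, 13 were measured and 5 tested, 4 of them higher and 1 lower by sign, the median being 0.07. H2-Eb1, a class II beta chain, ranged from 44.8 to 257 in WT and from 120 to 251 in S1/2-/- (0.46, SE 0.59, limma adjusted p = 0.784), and H2-DMa, which helps to load class II molecules, gave -0.07 (SE 0.13, adjusted p = 0.850, limma). Of 53 interferon response genes, 42 were measured and 17 tested, 6 of them higher and 11 lower by sign, the median being -0.12. Ifi27 had the largest statistic, at 599 to 864 in WT and 451 to 612 in S1/2-/- (-0.36, SE 0.13, limma adjusted p = 0.306), and Adar, an RNA-editing enzyme, followed at 0.30 (SE 0.16, adjusted p = 0.472, limma). By time, averaged over genotypes, 4 of the 5 class II genes and 11 of the 17 interferon genes were higher at ZT16 by sign, and none was called.

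H2-K1, Tap1, Tap2, H2-D1 and H2-T23 lie on the assembled chromosome 17 in that order in the GRCm38.p6 annotation, with the immunoproteasome genes Psmb9 and Psmb8 beside Tap1 and Tap2. B2m lies on chromosome 2 and both deleted genes on chromosome 6. H2-T18 is listed for chromosome 17 on a sequence outside the assembled chromosome, so its neighbours could not be taken from the annotation. From H2-K1 to the class I gene H2-T3, leaving out the members, 192 genes were listed, 83 measured and 50 tested. By sign 26 were higher and 24 lower in S1/2-/-, the median being 0.01, and 1 of the 50 was called, against 0.264% of all genes tested, the heat shock gene Hspa1a at 477 to 625 in WT and 248 to 308 in S1/2-/- (log2 difference -1.0, SE 0.12, limma adjusted p = 0.0127). The next by its statistic was Bag6, a protein quality control gene (0.45, SE 0.14, adjusted p = 0.257, limma).

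Several markers of other cell types moved with genotype, as H2-T18 did. Of 14 listed myelin genes 10 were measured, and their summed signal was 17545 to 23565 in WT and 27186 to 30520 in S1/2-/-, without overlap. The 8 tested were all higher, where 2834 of all 5690 genes were, with a median of 0.67. Of these 4 were called, against 0.264% of all genes, namely Cldn11 (1.02, limma adjusted p = 0.00491), Mal (0.68, adjusted p = 0.0093, limma), Mog (0.82, adjusted p = 0.0352, limma) and Mag (0.66, adjusted p = 0.0476, limma), as were 2 further probe sets of Mobp. Endothelial markers, 14 of 18 measured, summed to 5515 to 5778 in WT and 6103 to 6782 in S1/2-/-, also without overlap, and 10 of the 12 tested were higher and 0 called. Itm2a (0.34, adjusted p = 0.178, limma) and Flt1 (0.45, adjusted p = 0.340, limma) had the largest statistics. Microglial markers, 15 of 20 measured, summed to 8497 to 10308 in WT and 10014 to 10674 in S1/2-/-, and 8 of the 10 tested were higher and 0 called, with Laptm5 (0.27, adjusted p = 0.307, limma) and C1qc (0.29, adjusted p = 0.366, limma) leading. Astrocyte markers, 9 of 12 measured, summed to 18090 to 20813 and 20144 to 22353, with 7 of 9 tested higher and 2 called, Gfap (1.15, limma adjusted p = 0.00979) and Ntsr2 (0.67, adjusted p = 0.0352, limma). Cortical neuron markers, 13 of 16 measured, summed to 80972 to 87689 in WT and 76195 to 81876 in S1/2-/-, with overlap. Of the 13 tested, 8 were higher and 5 lower by sign, and 0 were called. Nrgn (0.32, adjusted p = 0.271, limma) and Snap25 (-0.18, adjusted p = 0.297, limma) had the largest statistics among them. None of the measured markers was listed at 0.

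Lymphocyte markers were mostly dim. Of 21 listed markers 18 were measured, only 4 passed the filter, and their summed signal was 2099 to 2407 in WT and 2162 to 2513 in S1/2-/-. Of the 4 tested, 1 was higher and 3 were lower in S1/2-/- by sign, the median being -0.04 and 0 called. The higher one was Cd4, a co-receptor of helper T cells, which had the largest statistic of the 4. It did not overlap, at 68.0 to 253 in WT and 277 to 376 in S1/2-/- (0.95, SE 0.36, limma adjusted p = 0.327). Coro1a gave -0.08 (SE 0.10, adjusted p = 0.772, limma). Of the other T cell genes, Cd3e ranged from 22.3 to 35.4 in WT and from 40.7 to 56.6 in S1/2-/-, and Cd8a from 11.7 to 26.5 and from 10.2 to 20.1, where the 10th percentile of an array's signals was 15.2 to 17.4. Cd3g, Ptprc and Cd79b were also dim and overlapped between genotypes, at 8.67 to 85.3, 9.76 to 31.7 and 19.1 to 66.4 over all arrays. The choroid plexus markers, 8 of 15 measured and 1 tested, summed to 3342 to 3699 in WT at ZT16 and to 378 to 2112 in the other arrays. The tested gene, Ttr, ranged from 83.2 to 2582 in WT and from 102 to 1456 in S1/2-/-. Blood genes (2941 to 8214 in WT and 2887 to 7685 in S1/2-/-) and meningeal genes (4886 to 6101 and 5483 to 6029) overlapped between genotypes.

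A measure of RNA quality also went with genotype. The ratio of 3' to 5' signal of the Actb control probe sets, which rises with RNA degradation, was 1.91 to 2.30 in WT and 1.76 to 1.90 in S1/2-/-, without overlap, while that of Gapdh was 0.884 to 0.961 over all arrays and overlapped. The WT array with the highest H2-T18 signal, 457, had a myelin sum of 23219 and an Actb ratio of 1.91, and that with the lowest, 193, had 17545 and 2.30. The WT array with the highest myelin sum, 23565, had an H2-T18 signal of 268 and an Actb ratio of 2.01. The remaining WT array had 19256, 247 and 2.09, so that in WT the H2-T18 signal rose as the Actb ratio fell. Over the 8 arrays, log2 H2-T18 correlated with the myelin sum at r = 0.909 and with the Actb ratio at r = -0.912. Within the 4 WT arrays r with the myelin sum was 0.773. In S1/2-/- arrays, H2-T18 signals of 565, 679, 781 and 854 stood beside myelin sums of 29424, 29375, 30520 and 27186. There the highest H2-T18 signal went with the lowest myelin sum. The Actb ratios of these S1/2-/- arrays were 1.90, 1.86, 1.90 and 1.76 in that order. These arrays share a scaling, the 8 fall into 2 genotypes, and no test was made of these values. The part of cell make-up or RNA quality in the H2-T18 and H2-D1 differences was not tested.

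**Figure D4:**
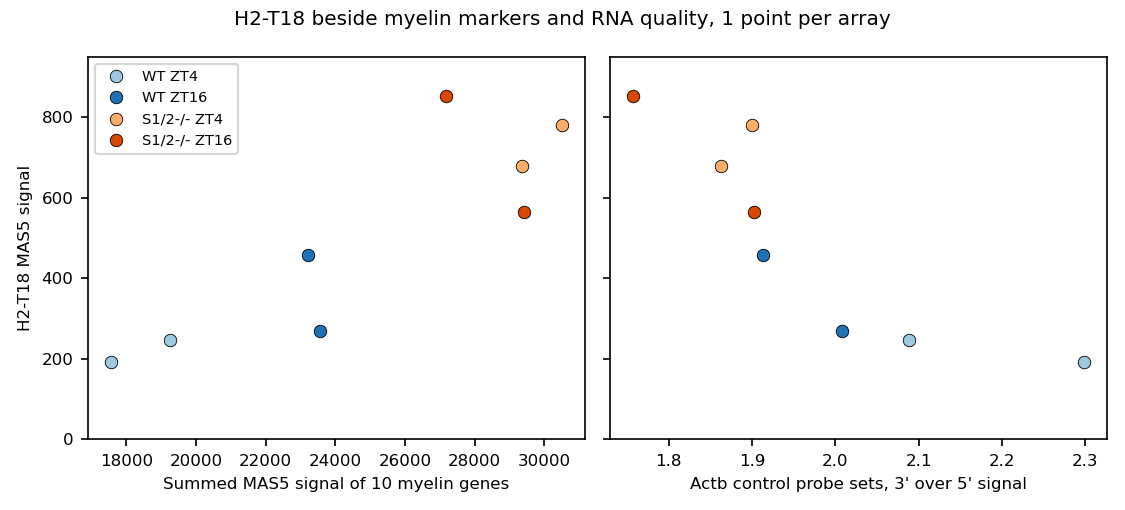
MAS5 signal of H2-T18 (98284_f_at) in each array against the summed signal of 10 myelin genes and against the 3' to 5' ratio of the Actb control probe sets, on linear axes of which only the vertical starts at 0. Each point is a mouse, coloured by genotype and time. The S1/2-/- arrays lie apart from WT on all 3 measures, with myelin sums of 27186 to 30520 and Actb ratios of 1.76 to 1.90.

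Tested probe sets with a single symbol were ranked by how like their log2 signal was to that of H2-T18 over the 8 arrays. Highest were Ugt8a (Pearson r = 0.977), Cd6 (0.968), Th (0.954), Ranbp10 (0.949) and Oser1 (0.947). These are the top of that ranking, over arrays that share a scaling and fall into 2 genotypes, and are given with no test. Ugt8a, which makes the myelin lipid galactocerebroside, was at 227 to 295 in WT and 371 to 482 in S1/2-/-. Cd6, a T cell surface receptor gene, was at 100 to 168 and 217 to 261, and Th, the enzyme of catecholamine synthesis, at 143 to 224 and 235 to 291. Within the member list, H2-T18 ran against 97540_f_at of H2-D1 (r = -0.887) and against B2m (r = -0.819), while for Tap2 r was 0.412.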

How the data were processed

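RNA from the cortex of 8 mice, 2 per group, was hybridised to Affymetrix arrays, a separate array for each mouse. The labels give Trizol for the RNA extraction and the study's methods RNeasy columns. The authors deposited a table of 12488 probe sets with MAS5 signals, a linear intensity that MAS5 corrects for background and scales on each array to a 2% trimmed mean of 500 (the columns gave this mean). The 66 control probe sets were left out, and 64 signals below 1 were set to 1 before log2. Probe sets were named from GEO's platform annotation, which can be old: 10833 have 1 symbol, 396 several and 1193 none.

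The main fit was limma 3.58.1 in R 4.3.3, with means of the 4 groups, an intensity trend, residual df 4 and prior df 6.02, over the 7453 probe sets whose mean log2 signal reached the 40th percentile (signal 111). Probe sets were called at fold over 1.5 and adjusted p under 0.05 (Benjamini-Hochberg over all tested) in 7 comparisons. Members below the filter were fitted without it. In gene lists each gene was represented by its probe set of highest mean signal. The replicates were separate mice. The number of arrays limits the precision. The script was tested on simulated data.

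The members, lists and tests were chosen with earlier results of these data known, and the list of genes from H2-K1 to H2-T3 and the probe sets with several symbols were added after the values were seen, since no neighbours could be had for H2-T18. Named were all member probe sets. In each list whose tests are described, the genes called between genotypes were named, or else the 2 with the largest moderated statistic. Also named were the 5 tested probe sets with a single symbol most like H2-T18. Alternatives were no filter or the 60th percentile, quantile normalization, median centring, log2 of signal plus 16, no trend, no moderation, a replicate block, unadjusted p and leaving out each array.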

Additional observations from a re-analysis of the deposited data

How the results depend on the processing

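The genotype difference of H2-T18 was 1.36 on the log2 scale and kept its direction under every alternative run, at 1.31 to 1.36 under other processing and 1.17 to 1.56 with an array left out. Its call depended on the setting. Averaged over times, 1 member was called, and 0 were called without the filter, without the intensity trend and without moderation. The count ranged from 0 to 1 with an array left out, 0 without either WT array at ZT4 or any S1/2-/- array and 1 without either WT array at ZT16. With all 8 arrays kept, no member was called at ZT4, but 1 was with the 60th percentile filter, with median centring and by unadjusted p. Over all probe sets those settings called 11 higher and 1 lower of 4969, 10 and 1 of 7453, and 155 and 93 of 7453. At ZT16, again with all arrays kept, no member was called, and 1 was by unadjusted p, where 219 were called higher and 100 lower of all 7453. The member counts at ZT4 and at ZT16 also moved in some fits with a WT array at ZT16 left out. For ZT16 against ZT4 in WT, in S1/2-/- and for the difference between them, 0 members were called. By unadjusted p 1 was called in each, against 3.45%, 2.82% and 4% of all probe sets tested. Since the members were listed for the genotype comparison, nothing is read from their counts in it.

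Over all probe sets, 16 were called higher and 3 lower in S1/2-/-. These counts were 9 and 2 without the filter, 10 and 2 with median centring, 0 and 0 without the trend or without moderation, and 138 and 49 by unadjusted p. They were 1 and 0 without the first WT array at ZT4 or the first S1/2-/- array at ZT16, and 77 and 11 without the first WT array at ZT16. The last array also set the calls by time, 1 in WT with all arrays and 22 higher and 78 lower without it. The cause was not tested.

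Replicate numbers are shared by the groups but did not pair the mice: deviations of arrays with the same number correlated at -0.001 to 0.098 over 6 pairs of groups, and 0 were above 0.1. With the replicate number as a block the H2-T18 difference was 1.36, 1 member was called averaged over times, and over all probe sets 11 were called higher and 2 lower. The block changed other calls over all probe sets. Between times in WT it called 9 higher and 1 lower, against 1 and 0 in the main fit. In the test of the difference it called 0 and 2, against 0 and 0. Between genotypes it called 12 and 1 at ZT4, against 6 and 1, and 0 and 0 at ZT16, against 1 and 0.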
